A study of Homo sapiens with 3 samples.

Results

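The calcium handling genes of the sarcoplasmic reticulum, SLN, PLN, ATP2A2, RYR2, CASQ2, JPH2, TRDN, SLC8A1 and CALR, were followed by day and cell class in human chambered cardiac organoids (CCOs). They are 9 of the 32738 genes in the count table. The set was chosen with these data in view, because SLN (sarcolipin) was found in cardiomyocytes (CMs) at D14 and in a few stromal cells at D21. The SLN values between D14 and D21 are therefore given as a description, and no test was made on them or on any other value.

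The CCOs were made from H7, an established human embryonic stem cell line. All of them went through CHIR99021, a GSK inhibitor that activates Wnt signalling, and then IWP-2, a Wnt inhibitor, before the cells were aggregated with Matrigel at day 7. CCOs of D8 and D14 were kept in cardiosphere growing medium (CGM, with thrombin, cardiotrophin-1, EGF, FGF-2, Wnt-3A and EDN1), whereas those of D21 had spent their last week in RPMI/B27 in a spinner flask. Organoids of 8, 14 and 21 days were dissociated, and 1 droplet library (Chromium Single Cell 3' v2) was made per day, in which each captured RNA molecule is counted once as a unique molecular identifier (UMI). With 1 library per day there is no replicate error, the intervals below (95%) cover counting error only, and the day, the medium, the flask and the library cannot be told apart.

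In each heartbeat calcium enters the CM from outside, opens the ryanodine receptor RYR2 of the sarcoplasmic reticulum and is released from this store. The calcium pump SERCA2, encoded by ATP2A2, then returns it to the store, and the sodium-calcium exchanger NCX1, encoded by SLC8A1, carries the rest out of the cell. PLN (phospholamban) and SLN are small membrane proteins that both lower the activity of the pump, PLN being known from ventricle and atrium and SLN chiefly from the atrium and skeletal muscle. TRDN (triadin) anchors the calcium-binding protein calsequestrin, of which CASQ2 is the cardiac form, at the receptor, JPH2 (junctophilin-2) holds the store close to the cell membrane, and CALR (calreticulin) binds calcium in the endoplasmic reticulum of most cells and is high in the embryonic heart.

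After the limits used by the study (more than 2000 and fewer than 7500 genes, under 10% mitochondrial UMIs), 2657, 3585 and 1946 cells were kept at D8, D14 and D21. The D21 library stood apart: of its 3928 barcodes within the gene limits only 1946 passed the mitochondrial limit, and its CM-like cells had a median mitochondrial share of 8.41%, against 5.16% at D14 and 2.87% at D8. Median UMIs per CM-like cell were 14467.5, 12232 and 12758, and per endoderm-like cell 23591, 20696.5 and 21922. Between 9 and 14 barcode sequences were shared by the kept cells of any 2 libraries. Clusters were made without the calcium genes and named from marker lists, which gave 500, 1097 and 543 CM-like cells, 0, 1376 and 826 fibroblast-like cells and 257, 212 and 307 endoderm-like cells. TNNT2 (cardiac troponin T) had levels of 1722, 2927 and 8863 CPM (UMIs per 1000000 UMIs of the class) in the CM-like classes, and 106, 162 and 733 CPM in all remaining cells of the same days. At D14 the name fibroblast-like rested in its largest cluster (1051 cells) on 3 of 8 markers and in the smaller one (322 cells) on 5, while the D21 cluster carried all 8.

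The promoters of 5 genes are printed here because these genes stand for 3 of the patterns found in CM-like cells. PLN, RYR2 and TRDN were higher on each later day, CALR differed little between days, and CASQ2 was close to 0. SLN had a pattern of its own, given below, and had no promoter entry. Each sequence is the 250 bases before the transcription start, read 5′ to 3′ on the gene's strand, from RefSeq (GRCh38.p14), in which 8 of the 9 genes had an entry. Capitals mark matches, on either strand, to short motifs that were searched in every promoter. GATAA stands for GATA factors and AAGTG for NKX2-5, both factors of early heart muscle. CATTCC is the core bound by TEAD factors of the Hippo pathway. The CCAAT box and the TATA box, searched as TATAAA, are general promoter elements. The MEF2 motif was searched too. The entries lie just upstream of the first exon, at chr6:118548046-118548295 (plus strand) for PLN, chr1:237041934-237042183 (plus) for RYR2, chr6:123636951-123637200 (minus) for TRDN, chr19:12938359-12938608 (plus) for CALR and chr1:115768715-115768964 (minus) for CASQ2.
PLN: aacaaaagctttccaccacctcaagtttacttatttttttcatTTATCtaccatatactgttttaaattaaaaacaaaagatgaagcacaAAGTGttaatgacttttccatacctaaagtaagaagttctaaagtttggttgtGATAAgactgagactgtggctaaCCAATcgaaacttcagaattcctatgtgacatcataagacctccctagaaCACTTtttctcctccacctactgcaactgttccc
RYR2: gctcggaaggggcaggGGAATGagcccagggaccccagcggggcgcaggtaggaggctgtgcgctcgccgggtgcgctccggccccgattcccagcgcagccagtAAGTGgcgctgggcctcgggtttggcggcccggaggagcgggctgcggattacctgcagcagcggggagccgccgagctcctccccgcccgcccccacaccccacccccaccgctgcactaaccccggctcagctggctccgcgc
TRDN: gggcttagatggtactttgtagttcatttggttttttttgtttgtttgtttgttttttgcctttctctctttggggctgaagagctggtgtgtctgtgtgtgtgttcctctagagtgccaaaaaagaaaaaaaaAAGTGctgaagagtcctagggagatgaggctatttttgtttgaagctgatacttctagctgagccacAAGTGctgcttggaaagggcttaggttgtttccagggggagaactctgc
CALR: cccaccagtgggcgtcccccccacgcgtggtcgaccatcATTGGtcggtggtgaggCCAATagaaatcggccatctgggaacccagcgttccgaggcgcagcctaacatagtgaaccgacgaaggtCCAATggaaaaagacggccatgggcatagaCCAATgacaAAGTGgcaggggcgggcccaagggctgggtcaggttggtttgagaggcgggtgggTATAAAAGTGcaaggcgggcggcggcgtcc
CASQ2: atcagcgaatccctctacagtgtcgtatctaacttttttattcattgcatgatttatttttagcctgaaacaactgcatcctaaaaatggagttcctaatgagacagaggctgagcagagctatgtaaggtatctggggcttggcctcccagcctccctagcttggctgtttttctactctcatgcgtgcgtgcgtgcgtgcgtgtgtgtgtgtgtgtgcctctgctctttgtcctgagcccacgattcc

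The 8 genes had 11 entries, 3 of them of SLC8A1 and 2 of ATP2A2, and no motif was in more than 1 entry of a gene. AAGTG was found in 6 entries (ATP2A2, CALR, PLN, RYR2, SLC8A1 and TRDN) and in 37.6% of all 35116 promoter entries. GATAA was found in 3 (ATP2A2, PLN and SLC8A1; 20.4%), 2 times each in PLN and in the SLC8A1 entry. CCAAT was found in 4 (ATP2A2, CALR, JPH2 and PLN; 32.0%), TATAAA in 2 (CALR and SLC8A1; 10.7%), CATTCC in RYR2 (11.9%) and the MEF2 motif in none (2.36%). CALR had 4 CCAAT matches and a TATAAA between 30 and 25 bases before its start, which overlaps an AAGTG match by 1 base. The CASQ2 sequence held no match. GC content ran from 34.8% in PLN to 75.2% in RYR2 among the printed sequences, against a median of 58.0% over all promoters. These matches describe letters in a short window and were not tied to any level below.

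In CM-like cells ATP2A2, PLN, RYR2, TRDN, JPH2 and SLC8A1 were higher at each later day, and SLN was not. ATP2A2, the pump, was at 91.8 CPM (85.3 to 98.7) at D8, 249 CPM (241 to 257) at D14 and 796 CPM (776 to 817) at D21. Its log2 ratio was 1.44 (1.32 to 1.55) from D8 to D14 and 1.68 (1.62 to 1.74) from D14 to D21, an 8.66-fold higher level at D21 than at D8. When each cell was thinned to 4000 UMIs, so that days could be compared at 1 depth, 32.2%, 51.2% and 89.0% of CM-like cells had an ATP2A2 UMI (66.8%, 80.0% and 98.5% without thinning). No kept cell was shallower than 4000 UMIs. In endoderm-like cells, taken as the class that should hold little of these genes, ATP2A2 was at 36.0, 38.1 and 103 CPM and the thinned share was 10.5%, 13.7% and 27.4%. ATP2A2 is used in many cell types, and its level in CM-like cells was above that in endoderm-like cells on all 3 days.

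PLN, the inhibitor of the pump that is relieved by phosphorylation, had levels of 411 CPM (397 to 425) at D8, 1287 CPM (1268 to 1305) at D14 and 2935 CPM (2896 to 2975) at D21 in CM-like cells. The 3 intervals do not overlap, and the log2 ratios were 1.65 (1.59 to 1.70) and 1.19 (1.16 to 1.22) over the successive steps. The thinned share of CM-like cells with a PLN UMI was 54.6%, 80.3% and 98.5% (74.4%, 91.3% and 99.8% without thinning), so that at D21 nearly every CM-like cell carried the transcript at this depth. In endoderm-like cells the share was 2.72%, 7.55% and 31.9%, with levels of 15.1, 31.3 and 116 CPM. PLN UMIs per ATP2A2 UMI in CM-like cells were 4.48 (4.13 to 4.85) at D8, 5.18 (4.99 to 5.36) at D14 and 3.69 (3.58 to 3.80) at D21. Each gene's 3' end is captured with its own efficiency, so only the change of such a ratio over days can be read, and here the inhibitor was lower relative to its pump at D21 than at D14.

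Of the release complex, RYR2, TRDN and JPH2 were also higher on each later day, and for RYR2 and TRDN the second step was the smaller one. Several other partners of the release channel were lower at D21 than at D14 and are given below. RYR2, the release channel, was at 42.0 CPM (37.7 to 46.7), 115 CPM (109 to 120) and 189 CPM (179 to 199), with log2 ratios of 1.44 (1.28 to 1.62) and 0.72 (0.62 to 0.83). TRDN was at 86.5 CPM (80.2 to 93.2), 230 CPM (222 to 238) and 361 CPM (348 to 375), with log2 ratios of 1.41 (1.29 to 1.53) and 0.65 (0.58 to 0.73). TRDN and its partner RYR2 kept nearly the same proportion, with 2.06 (1.81 to 2.35), 2.01 (1.89 to 2.13) and 1.91 (1.79 to 2.04) TRDN UMIs per RYR2 UMI. JPH2, which spans the cleft in which release occurs, was at 27.0 CPM (23.5 to 30.8), 46.2 CPM (42.8 to 49.9) and 84.8 CPM (78.3 to 91.8). Its log2 ratios were 0.77 (0.55 to 1.00) and 0.88 (0.72 to 1.04), so that the first step was above 2-fold for RYR2 and TRDN and below it for JPH2. The thinned share of CM-like cells with a UMI was 14.8%, 34.8% and 51.7% for RYR2 (40.6%, 67.6% and 82.1% without thinning), against 0.977% or less in endoderm-like cells.

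Of the store proteins, CALR had nearly the same level on all days in CM-like cells, and CASQ2 was almost not counted. CALR was at 289 CPM (278 to 301), 244 CPM (236 to 252) and 286 CPM (273 to 298), and its log2 ratio from D8 to D21 was -0.02 (-0.10 to 0.07). Set against the pump, CALR UMIs per ATP2A2 UMI went from 3.15 (2.90 to 3.43) at D8 to 0.981 (0.936 to 1.03) at D14 and 0.359 (0.341 to 0.377) at D21. CASQ2, the main calcium buffer of the adult cardiac store, had 3 UMIs in the 500 CM-like cells of D8, 1 UMI in the 1097 of D14 and 2 UMIs in the 543 of D21, that is 0.370, 0.0686 and 0.273 CPM. The upper ends of these intervals were 1.08, 0.382 and 0.987 CPM, and no ratio between days is given at such counts.

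SLC8A1, the exchanger, was at 48.1 CPM (43.4 to 53.1), 167 CPM (161 to 174) and 423 CPM (408 to 438) in CM-like cells. Its log2 ratios were 1.79 (1.64 to 1.96) and 1.34 (1.26 to 1.42), and its level at D21 was 8.78-fold that at D8, close to the 8.66-fold of ATP2A2. The number of SLC8A1 UMIs per ATP2A2 UMI was 0.523 (0.462 to 0.593) at D8, 0.672 (0.638 to 0.708) at D14 and 0.532 (0.509 to 0.555) at D21. Over all CM-like cells the exchanger and the pump thus stood in nearly the same proportion at the first and last day. At D21 that proportion differed with the mitochondrial share. SLC8A1 and ATP2A2 had 198 and 223 UMIs in the 40 cells at 0 to 5%, and 2899 and 5603 in the 503 at 5 to 10%. At D8 they had 282 and 553 UMIs at 0 to 5%.

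**Figure D1:**
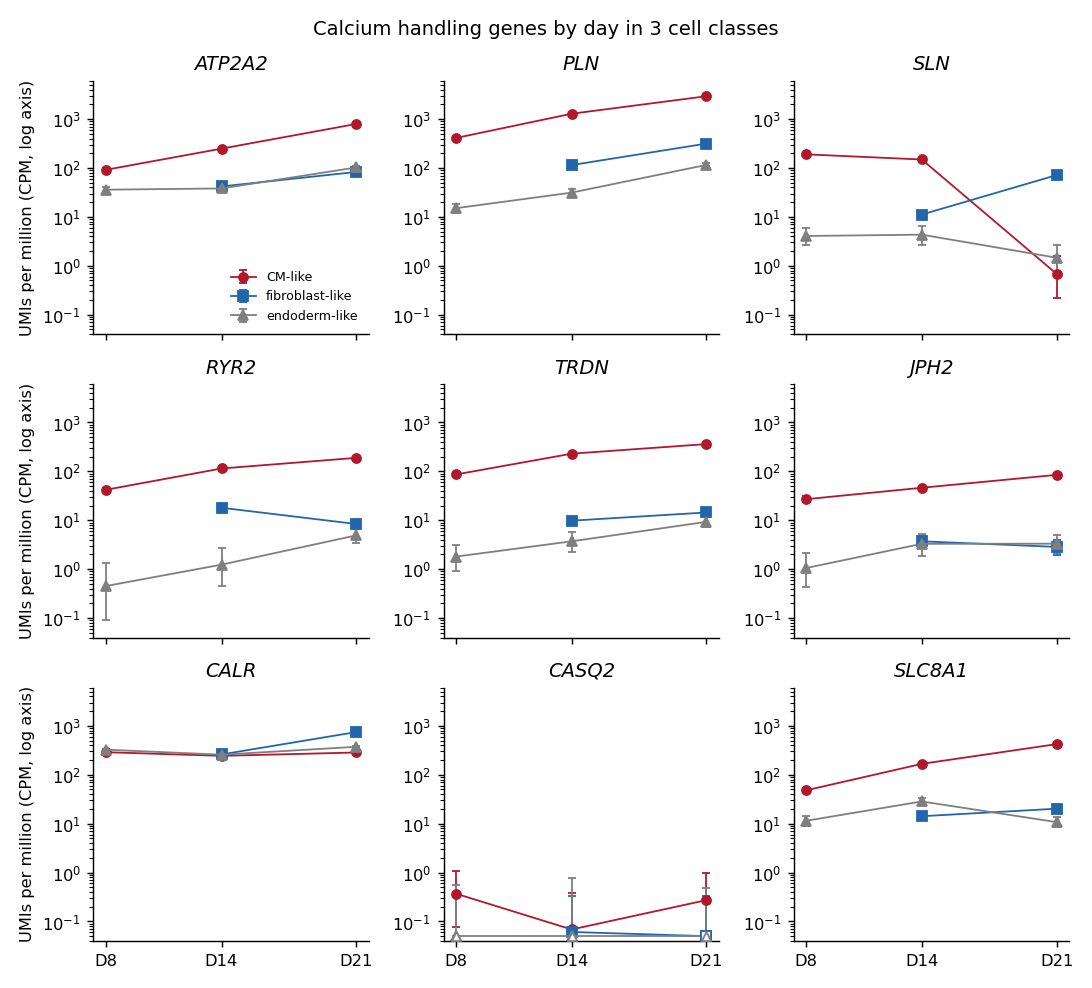
Level of each of the 9 genes by day (D8, D14, D21) in CPM on a log axis, for CM-like (red circles), fibroblast-like (blue squares) and endoderm-like cells (grey triangles); bars are 95% Poisson intervals and open symbols mark a count of 0. PLN in CM-like cells goes from 411 to 2935 CPM, CALR stays between 244 and 289 CPM, and SLN falls to 0.683 CPM at D21 while it reaches 71.5 CPM in fibroblast-like cells.

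SLN followed none of these genes. It was at 190 CPM (181 to 200) in CM-like cells of D8, at 149 CPM (143 to 156) at D14 and at 0.683 CPM (0.222 to 1.59) at D21, from 1542, 2174 and 5 UMIs. The D21 level was 5.76 CPM when clusters were made at resolution 0.4 and 10.1 CPM for cells gated on sarcomere UMIs. The log2 ratio was -0.35 (-0.44 to -0.25) from D8 to D14 and -7.51 (-9.39 to -6.55) from D14 to D21. The larger of the 2 CM-like clusters of D21 (490 cells) had 0 SLN UMIs. There 3 counts would be 0.441 CPM, and the interval ended at 0.543 CPM. The smaller cluster (50 cells) held all 5 UMIs, at 10.3 CPM (3.34 to 24.0). After thinning, 22.4% (18.8 to 26.3), 14.4% (12.4 to 16.6) and 0.368% (0.0446 to 1.32) of CM-like cells had an SLN UMI, against 0.389%, 2.36% and 0.651% of endoderm-like cells. Without thinning the shares were 37.0%, 21.9% and 0.737% against 5.06%, 6.60% and 2.61%. Over the whole CM-like class the D21 share was thus no higher than that of the background class. In the smaller cluster it was 4.0% (0.488 to 13.7) after thinning and 8.0% without thinning. SLN UMIs per PLN UMI in CM-like cells were 0.462 (0.435 to 0.491), 0.116 (0.111 to 0.121) and 0.00023 (0.00008 to 0.00054).

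Between D8 and D14, 5 of the 8 genes at 10 CPM or more were at least 2-fold higher in CM-like cells (SLC8A1, PLN, RYR2, ATP2A2 and TRDN), where 10.6% of all 9074 genes at that level were, and 0 were 2-fold lower, against 2.33%. Between D14 and D21, 3 of 8 were at least 2-fold higher (ATP2A2, SLC8A1 and PLN; 4.99% of 9142 genes) and SLN was lower (14.8%). At resolution 1.2 only ATP2A2 stayed 2-fold higher, since PLN (1612 to 2945 CPM) and SLC8A1 (214 to 426 CPM) fell short, and with the gate on sarcomere UMIs PLN (1227 to 2448 CPM) fell just short. From D8 to D21, 6 of 8 were higher (11.9% of 8952 genes) and SLN was lower (14.9%). The median log2 ratio of the 8 genes was 1.42, 0.80 and 2.11 over these 3 spans, and that of all genes was 0.05, -0.17 and -0.12. The steps share the D14 library, and the genes were chosen with these values known, so the counts describe the genes and nothing is read from them.

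The 10 sarcomere genes, set beside them as the contractile partner of the calcium system, were higher by a median log2 ratio of 1.61, 1.25 and 2.83. TNNC1, the troponin that binds calcium, went from 274 to 946 and 7877 CPM, with log2 ratios of 1.78 and 3.06. TNNI1, the slow skeletal troponin I of the fetal heart, had log2 ratios of 0.87 and 0.33. Of the 10 genes, 6 passed 2-fold in the first step, 8 in the second and 10 over both, none of them downward.

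**Figure D2:**
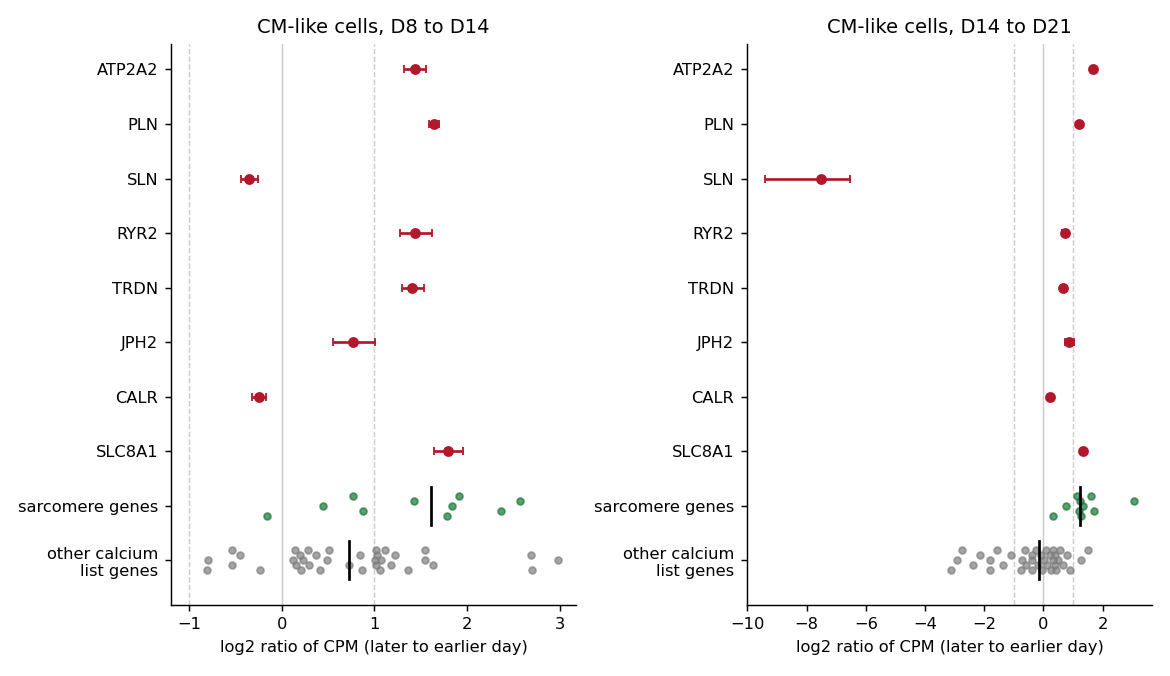
Log2 ratio of CPM in CM-like cells for D8 to D14 (left) and D14 to D21 (right); red points are the calcium handling genes with 95% counting intervals, green points the 10 sarcomere genes, grey points the other calcium list genes at 10 CPM or more, short vertical bars the medians and dashed lines 2-fold. SLN lies at -7.51 in the right panel, and the grey median goes from 0.73 to -0.15.

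The wider calcium list had a different balance in each step, and that of the second step depended on the processing. It held 55 other symbols for uptake, release, store, junction and plasma membrane, of which 51 were in the table. From D8 to D14, 16 of 37 genes at 10 CPM or more were at least 2-fold higher and 0 lower, against 10.6% and 2.33% of all genes, with a median log2 ratio of 0.73. From D14 to D21, 2 of 38 were higher and 10 lower, against 4.99% and 14.8% of all genes, with a median of -0.15 beside the -0.17 of all genes. With TMM or median-of-ratios factors, which place all D21 ratios 0.23 and 0.27 higher on the log2 scale, 4 were higher and 8 lower, and the members past 2-fold were 4 higher and SLN lower. With the endoderm-like level subtracted, 8 were higher and 5 lower, so the balance turned with that setting. Without these changes the 2 higher genes were CACNA1C, the pore subunit of the L-type calcium channel (20.8 to 59.3 CPM, log2 ratio 1.51), and its beta subunit CACNB2 (19.5 to 46.6 CPM, 1.26). SRL (sarcalumenin, a calcium-binding protein of the store) and CACNA2D1 (a further channel subunit) had log2 ratios of 0.88 and 0.80.

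The 10 lower genes held several partners of the release channel; those beyond S100A1, CACNA1H, BIN1 and JPH3 are named after their values were seen. S100A1, a calcium sensor that binds RYR2 and SERCA2, was at 1.23, 10.6 and 1.09 CPM on the 3 days, with log2 ratios of 2.98 and -3.12. It reached the limit of 10 CPM only at D14, so both ratios rest on low levels and on that day. FKBP1B, the immunophilin bound to RYR2, went from 47.7 to 13.7 CPM (-1.79) between D14 and D21, SRI (sorcin) from 357 to 139 CPM (-1.36) and ITPR1, the inositol trisphosphate receptor, from 16.3 to 3.55 CPM (-2.15). BIN1, which shapes transverse tubules, went from 61.9 to 9.02 CPM (-2.76), JPH3 from 14.8 to 2.73 CPM (-2.38) and CACNA1H, a T-type channel, from 16.5 to 2.05 CPM (-2.92). ITPR1, BIN1, JPH3 and CACNA1H were also under 10 CPM at D21 and passed the limit by their D14 level. The other three were ATP2B1 (a plasma membrane pump), STIM1 (a sensor of store filling) and C4orf3, a further small regulator of SERCA, which went from 861 to 288 CPM (-1.58).
Of the small regulators of the pump named here, PLN was higher at D21 than at D14, and SLN and C4orf3 were lower. SLN was chosen for that difference and C4orf3 was named after its value was seen. In this step 14.8% of 9142 genes were at least 2-fold lower, so nothing is read from these regulators.

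The first step had its own leading genes. Besides S100A1, JPH1, the junctophilin of skeletal muscle, went from 4.44 to 29.5 CPM (log2 ratio 2.70), SRL from 1.85 to 12.6 CPM (2.69) and ITPR1 from 5.18 to 16.3 CPM (1.63). Among the lowest ratios were those of ATP2B1 (-0.81), the chaperone HSP90B1 (-0.80) and the store potassium channel TMEM38B (-0.54). HRC, a histidine-rich store protein that binds TRDN, also named after its values were seen, was at 82.6, 187 and 143 CPM.

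The D21 CM-like cells had a higher mitochondrial share, so the levels were also taken within windows of that share, an alternative added after the data were seen. Among CM-like cells at 5 to 10% (567 cells at D14, 503 at D21), the log2 ratios from D14 to D21 were 1.42 for ATP2A2, 1.06 for PLN, 1.25 for SLC8A1, 0.90 for RYR2, 0.81 for JPH2, 0.46 for TRDN, 0.09 for CALR and -7.73 for SLN. At 0 to 5% (530 and 40 cells), SLN had 692 UMIs (105 CPM) at D14 and 0 at D21, where 3 counts would be 6.68 CPM, so it was at least 15.7-fold lower. The difference in SLN was therefore as large among cells at 5 to 10% as among all CM-like cells. From D8 to D14 the SLN ratio depended on the window: it was -1.03 at 0 to 5% (214 to 105 CPM) and 1.12 at 5 to 10% (85.1 to 186 CPM).

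Within D21 itself, several levels went up with the mitochondrial share when counted per 1000000 non-mitochondrial UMIs. ATP2A2 was at 512 in the window of 0 to 5%, 889 at 5 to 10%, 1236 at 10 to 20% and 1877 at 20 to 40%, and JPH2 at 57.4, 94.6, 122 and 143. MYH6, the atrial myosin heavy chain used as a sarcomere reference, was at 4739, 9970, 11991 and 15797, and TRDN went the other way, at 423, 391, 328 and 305. Barcodes above 10% were taken by a gate on sarcomere UMIs instead of by cluster. Among them, at 10 to 20% (170 barcodes at D14, 1494 at D21), the log2 ratio from D14 to D21 was 0.60 for PLN, 1.22 for ATP2A2, 0.77 for SLC8A1 and -5.92 for SLN, which went from 247 to 4.04 CPM. Of the 82 SLN UMIs of D21 in that window, 44 were in 1 barcode, and only 3 barcodes had 3 or more. The direction was that of the clustered CM-like cells for PLN, ATP2A2, SLC8A1 and SLN, and each step was smaller. The way of selecting cells differs in that comparison. Kept cells taken by the same gate had an SLN log2 ratio of -3.80, a smaller step than -5.92. What part the mitochondrial limit has in the D21 levels was not tested.

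**Figure D3:**
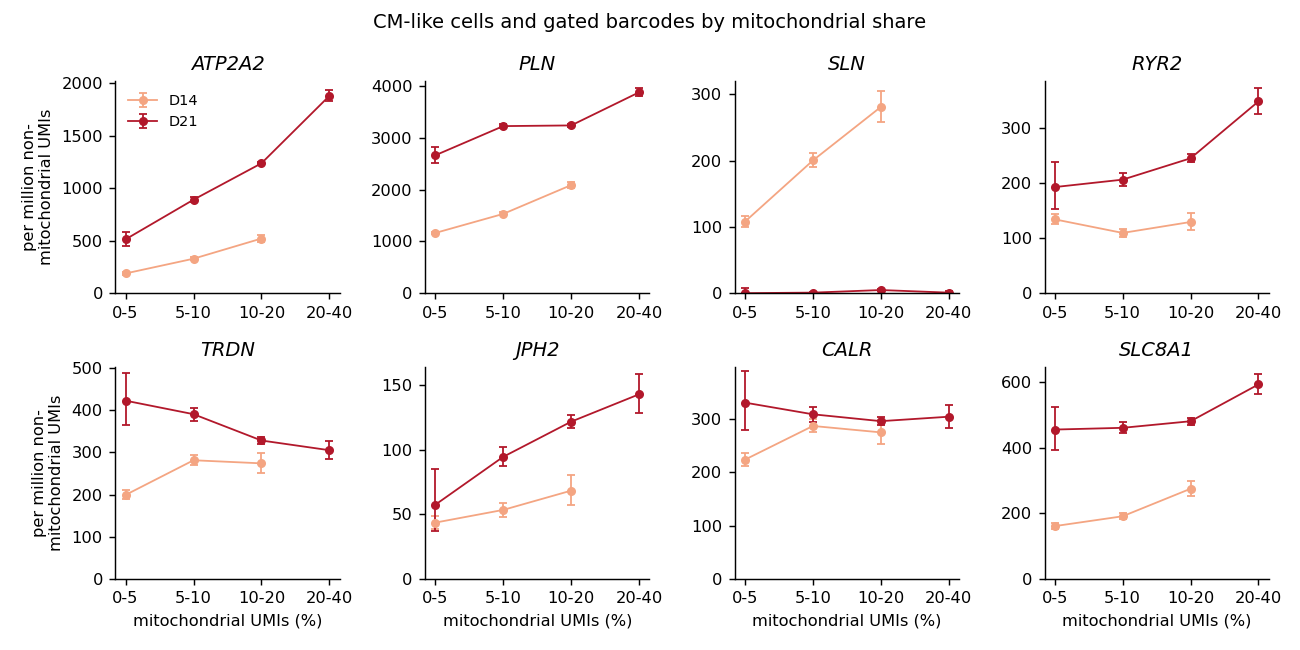
Level of 8 genes per 1000000 non-mitochondrial UMIs (linear axis from 0) by window of mitochondrial share, for D14 (light) and D21 (dark); the first 2 windows hold CM-like cells, the other two hold barcodes gated on sarcomere UMIs, and bars are 95% Poisson intervals. At D21 ATP2A2 climbs from 512 to 1877 over the windows and TRDN goes from 423 to 305, while SLN is at 4.70 or lower in all windows of D21.

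Within a class, SLN was spread over cells in another way than the other genes. At D14, 21 of the 1097 CM-like cells held 50% of the SLN UMIs of the class, with up to 162 UMIs in a cell, whereas 163 cells held 50% of the PLN UMIs. At D8, 19 of 500 cells held 50% of the SLN UMIs, with up to 146 in a cell, and 64 held 50% of the PLN UMIs. If the thinned SLN UMIs had been spread evenly, 53.4% of CM-like cells at D8 and 39.1% at D14 would have had one, against the 22.4% and 14.4% observed. SLN UMIs in CM-like cells were thus less evenly spread than those of PLN on both days.

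At D21 the SLN UMIs were almost all outside the CM-like class. Of 1952 SLN UMIs in the kept cells of D8, 79.0% were in CM-like cells, and of 2607 at D14, 83.4% were in CM-like and 7.02% in fibroblast-like cells. Of 928 at D21, 86.4% (84.0 to 88.6) were in fibroblast-like, 8.41% in dividing, 3.34% in unnamed and 0.539% in CM-like cells. The unnamed class of D21 (61 cells, 58 of them in a cluster led by MYL2) also carried CM genes. Its sarcomere UMIs were at 48.4% of the CM-like level and its PLN at 1660 CPM. It held 31 SLN UMIs (25.4 CPM) in 3 cells, which the CM-like value leaves out. The level in fibroblast-like cells was 11.1 CPM (9.59 to 12.9) at D14 and 71.5 CPM (66.6 to 76.6) at D21, a log2 ratio of 2.68 (2.45 to 2.92). The fibroblast-like classes of both days are separate clusters with different leading genes, which limits what this ratio compares. The thinned share of fibroblast-like cells with an SLN UMI was 2.40% (1.66 to 3.35) at D14 and 5.33% (3.90 to 7.09) at D21.

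**Figure D4:**
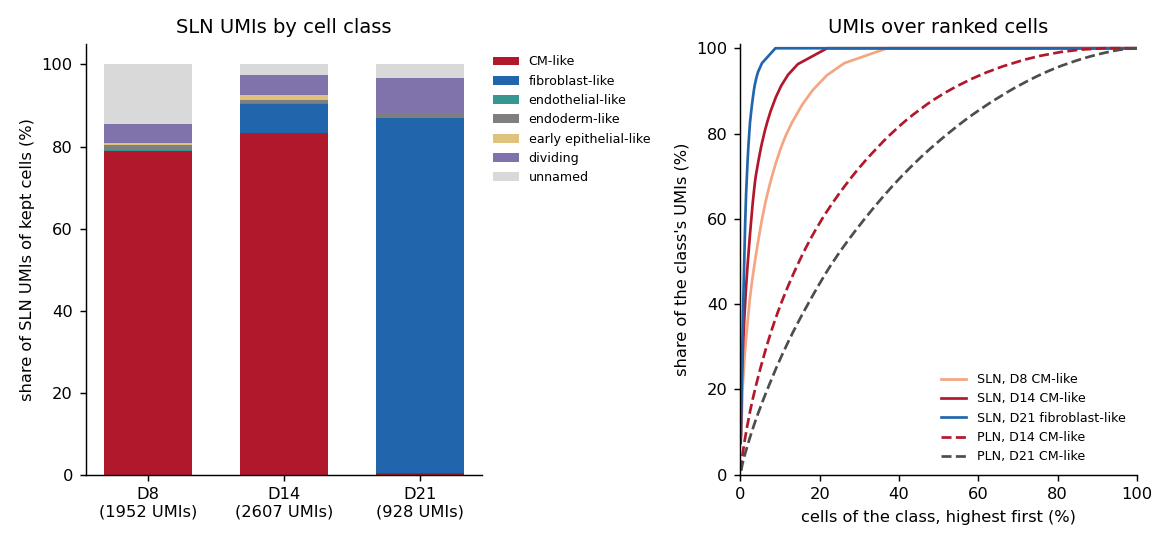
Left, share of the SLN UMIs of kept cells (%) held by each cell class on each day, with the number of UMIs under the day; right, cumulative share of a class's UMIs (%) against its cells ordered from the highest, for SLN (solid) and PLN (dashed). The bars pass from 83.4% CM-like at D14 to 86.4% fibroblast-like at D21, and the SLN curves climb steeply, with 8 of 826 fibroblast-like cells of D21 holding 50% of the UMIs.

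The D21 signal came from few cells. Of the 826 fibroblast-like cells, 37 (4.48%) had 3 or more SLN UMIs and held 94.5% of the SLN UMIs of the class, and 8 cells held 50%, with up to 71 UMIs in a cell. These 37 cells had a median of 16810 UMIs and a mitochondrial share of 3.44%, against 12595 UMIs and 3.81% in the other 789. Their other calcium genes did not stand out: PLN was at 399 against 310 CPM, ATP2A2 at 60.4 against 84.4 CPM, RYR2 at 4.77 against 8.59 CPM and CALR at 652 against 754 CPM. The 10 CM markers summed to 3321 CPM in the SLN-bearing cells and 3935 CPM in the others, and 0 of 10 were 2-fold higher (10 CPM added to both), with TNNT2 at 363 against 493 CPM.

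Most markers of smooth muscle were higher in the SLN-bearing fibroblast-like cells. Of 8374 genes, 114 (1.36%) were at least 2-fold higher than in the other cells of the class, and of 8 smooth muscle markers 5 were. The 114 include SLN itself, by which the cells were chosen. ACTA2 (smooth muscle actin) was at 2401 against 723 CPM, TAGLN (transgelin) at 1099 against 244 CPM, CNN1 (calponin) at 215 against 54.1 CPM, ACTG2 at 79.5 against 21.0 CPM and LMOD1 at 23.9 against 6.71 CPM. The other three were not higher: MYH11, the smooth muscle myosin heavy chain that defines mature smooth muscle, was at 6.36 against 5.86 CPM, MYLK at 1.59 against 10.2 CPM and SMTN at 22.3 against 26.1 CPM. The list summed to 3849 CPM against 1091 CPM.

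The genes with the highest ratios were AGT (angiotensinogen, 388 against 32.7 CPM, in 26 of the 37 cells), CTGF (a matricellular protein, 825 against 85.1 CPM), DHRS9 (a retinol dehydrogenase, 84.3 against 4.34 CPM) and PDLIM3 (a protein of the actin cytoskeleton, 1365 against 213 CPM, in 36 cells). MGP, an inhibitor of calcification, was at 5399 against 1165 CPM, GUCY1A3, a subunit of the nitric oxide receptor, at 156 against 28.0 CPM and ENPP1 at 73.2 against 11.1 CPM. CD14, also among the highest, came from 2 cells only. Pericyte markers summed to 518 against 768 CPM, with RGS5 at 388 against 577 CPM and PDGFRB at 79.5 against 158 CPM. Skeletal muscle markers, of interest because SLN is high in that tissue, summed to 28.6 against 23.5 CPM, and MYOD1, MYF5, MYOG and PAX7 were at 0 in both groups.

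Of the other marker lists no gene was 2-fold higher, and some sums were higher and some lower. Of the endothelial list, 2 genes were 2-fold lower, EMCN at 6.36 against 71.4 CPM and KDR at 12.7 against 70.5 CPM, and the list summed to 237 against 437 CPM. The 8 fibroblast markers summed to 7945 against 5628 CPM and the stress genes to 959 against 677 CPM. NR2F1, a transcription factor of the atrial program, was at 4.77 against 30.4 CPM and TCF21, an epicardial factor, at 28.6 against 77.6 CPM. All these are differences between cells of 1 library, chosen by their SLN count, and carry no test.

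SLN-bearing CM-like cells of the earlier days were described in the same way, an addition made after seeing the data. At D8, 109 of 500 CM-like cells had 3 or more SLN UMIs and held 93.6% of the SLN UMIs of the class. Their PLN was at 489 CPM against 387 CPM in the other 391 cells, ATP2A2 at 110 against 86.1 CPM, and the 10 CM markers summed to 16653 against 10599 CPM. Of 8455 genes, 5 (0.0591%) were at least 2-fold higher, a count that includes SLN itself, by which the cells were chosen.

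At D14, 131 of 1097 CM-like cells had 3 or more SLN UMIs and held 93.7% of the SLN UMIs, with a median of 13209 UMIs per cell against 12089 in the others and the same median mitochondrial share of 5.16%. Of 9043 genes, 19 (0.210%) were at least 2-fold higher, again with SLN itself counted. Among the highest were NPPB (brain natriuretic peptide, 149 against 33.1 CPM, in 19 cells), ACTA1 (skeletal actin, 305 against 88.5 CPM), ANKRD1 (a stretch-responsive protein of the sarcomere, 530 against 183 CPM) and ABRA (an actin-binding protein of striated muscle, 99.8 against 30.2 CPM). CTGF was at 214 against 74.7 CPM and TAGLN at 493 against 184 CPM, so these 2 genes were higher in SLN-bearing cells both of the D14 CM-like and of the D21 fibroblast-like class. ISL1, a progenitor factor, was at 44.1 against 84.7 CPM, and PLN was at 1427 against 1265 CPM. These are values from 1 library per day and carry no test.

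**Figure D5:**
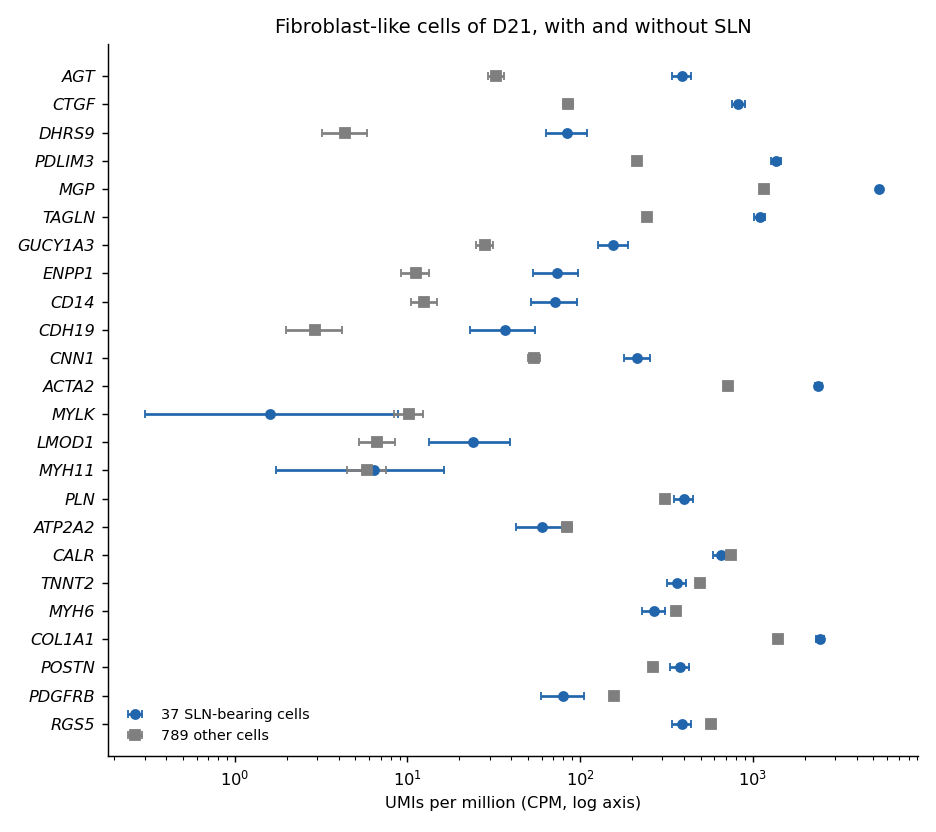
Level in CPM (log axis) in the 37 SLN-bearing fibroblast-like cells of D21 (blue circles) and the other 789 (grey squares), with 95% Poisson intervals, for the genes with the highest ratios, smooth muscle genes and reference genes. AGT (388 against 32.7), CTGF (825 against 85.1) and TAGLN (1099 against 244) lie well to the right in the SLN-bearing cells, while PLN (399 against 310) and TNNT2 (363 against 493) lie close together.

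In the other classes the members were read against what free RNA from CMs could bring. An added measure scaled each gene's level in CM-like cells by the ratio of sarcomere UMIs in the class to those in CM-like cells of that day, which was 8.18% for fibroblast-like cells at D14, 5.98% at D21 and 3.81% for endoderm-like cells at D21. At D14 the SLN of fibroblast-like cells was 11.1 CPM against 12.2 CPM from this scaling, and PLN was 115 against 105 CPM. At D21 SLN was 71.5 against 0.0408 CPM, and PLN was 315 against 176 CPM. PLN of endoderm-like cells at D21 was 116 against 112 CPM, a ratio of 1.03. The D14 values of SLN and PLN in fibroblast-like cells and the D21 value of PLN in endoderm-like cells thus lay near the scaled CM level. The scaling compares class levels only and does not use the spread over cells. Of the 1376 fibroblast-like cells of D14, 71 held the 183 SLN UMIs and 651 held the 1883 PLN UMIs. For SLN, 12 cells had 3 or more UMIs, with up to 39 in a cell. Whether free RNA brought the SLN UMIs of this class was not tested. The scaled SLN level of D21 follows from the near absence of SLN in CM-like cells, for which the genes were chosen, and nothing is read from it. RYR2, TRDN, SLC8A1 and JPH2 in D21 fibroblast-like cells were at 8.38, 14.4, 20.2 and 2.85 CPM, below their scaled levels.

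CALR was lower in CM-like than in other cells at D14 and D21, and SLN was so at D21 (0.683 against 39.1 CPM). Most of the genes at 10 CPM or more were at least 2-fold higher in CM-like than in all other cells, 7 of 8 at D8 (6.24% of all genes), 7 of 8 at D14 (9.84%) and 6 of 8 at D21 (12.8%), without SLN and CALR. CALR was at 289 against 255 CPM at D8, 244 against 272 CPM at D14 and 286 against 599 CPM at D21. In fibroblast-like cells it went from 261 CPM (253 to 269) at D14 to 748 CPM (732 to 764) at D21, a log2 ratio of 1.52 (1.47 to 1.58), and in endothelial-like cells of D21 it was at 745 CPM (677 to 819). The 2 D14 fibroblast-like clusters differed, the one with 5 of 8 markers at 461 CPM and the one with 3 at 178 CPM. Of the genes at 10 CPM or more in fibroblast-like cells, SLN, PLN and CALR were at least 2-fold higher at D21 than at D14 (5.95% of 9065 genes) and RYR2 was lower (12.0%), at 18.0 and 8.38 CPM. RYR2 was at 23.3 CPM in the D14 cluster with 3 markers and at 4.76 CPM in the one with 5. The latter is below the D21 level, so the direction for RYR2 depends on the D14 cluster. The D21 level of CALR was less than 2-fold that of the D14 cluster with 5 markers (748 against 461 CPM). Whether CALR passed 2-fold thus also depends on the D14 cluster.

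Over 19 combinations of day and class with at least 30 cells, the genes whose log2(CPM + 1) ran most like each member were listed as a description (Pearson r across groups that share libraries and depth). PLN ran with MYH6 (0.985), ACTN2 (0.984) and HSPB7 (0.977), ATP2A2 with LMOD2 (0.989), LRRC10 (0.980) and TRIM63 (0.979), and TRDN with MYL4 (0.973). RYR2 ran with UNC45B (0.960), TNNI1 (0.960) and CISD1 (0.957), JPH2 with FSD2 (0.956), and SLC8A1 with MYL9 (0.961), MB (0.950) and ACTC1 (0.945). CALR ran with CASP4 (0.948) and DNAJB11 (0.940). No gene came as close to SLN: the highest were LARGE (0.836), SYNGR1 (0.830), RGS4 (0.812), PLCB1 (0.790) and COL5A1 (0.784), and among the members r was 0.440 with PLN and 0.156 with ATP2A2.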

How the data were processed

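The deposited table holds whole-number UMI counts per gene (32738) and barcode (17327), which the authors made with Cell Ranger against hg19, per the submitters' processing notes; 0 columns were left unused. Barcodes were assigned to days from the table's own names. Cells were kept by the authors' stated limits, giving 46767738, 50247286 and 30898727 UMIs at D8, D14 and D21. Clustering used Seurat 5.3.0 in R 4.3.3 (LogNormalize, 2000 variable genes of which 1989 remained without the calcium genes, 20 principal components, resolution 0.8, no integration). A cluster was named when at least 3 markers of 1 list were 2-fold higher than in other cells (10 CPM added) with a lead of 2 over the next list.

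Counts were summed per day and class and given as CPM of all UMIs with exact Poisson intervals. Log2 ratios had 1 count added and an exact split interval, and shares used Clopper-Pearson intervals; each covers counting error only, at 95%. Ratios were counted for genes at 10 CPM or more in either group. Scrublet marked 1, 1 and 7 cells, under 0.5% of cells, and so had not worked, and no doublets were removed in the values reported. Python 3.11.15, scipy 1.17.1 and edgeR 4.0.16 (TMM factors only) were used, and the interval code was tested on simulated data. With 1 library per day no test was run. The members and lists were chosen with earlier results of these data known. The genes named were the 9 members, the 4 calcium list genes with the largest ratio each way per step, the sarcomere list, the marker lists and the most alike genes by Pearson r, with additions said to be made after seeing values. A gene that this rule names is not reported here. Alternatives changed the mitochondrial limit, the resolution, the gate, the scaling, the low-level filter, the added count, doublet scores, background subtraction and the least SLN UMIs of a bearing cell; windows of mitochondrial share, the scaled CM level and SLN-bearing CM-like cells were added after seeing the data.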

Additional observations from a re-analysis of the deposited data

Results flagged for a closer look

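SLN moved in opposite directions in 2 classes between the same libraries. From D14 to D21 its log2 ratio was -7.51 in CM-like cells (149 to 0.683 CPM) and 2.68 in fibroblast-like cells (11.1 to 71.5 CPM), with 1 library per day. The difference was not tested, and the genes were chosen for it. In fibroblast-like cells of D21, 37 of 826 cells held 94.5% of the SLN UMIs.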

How the results depend on the processing

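Leaving a library out was not possible with 1 per day. No paired analysis was possible because each day has 1 library. The SLN log2 ratio from D14 to D21 in CM-like cells (-7.51) was -4.64 at resolution 0.4, -3.80 for cells gated on sarcomere UMIs instead of clustered and -5.92 for gated barcodes at 10 to 20% mitochondrial share; it had no value at a mitochondrial limit of 5%, after background subtraction or in the window of 0 to 5%, where too few cells or UMIs were left. The count of members past 2-fold from D14 to D21 (4) was 2 at resolution 1.2 and 2 for gated barcodes at 10 to 20%. The fibroblast-like share of D21 SLN UMIs (86.4%) was 78.0% at a mitochondrial limit of 20% and 89.7% without the 5% highest doublet scores. The count of other calcium list genes 2-fold higher from D14 to D21 (2) was 1 at resolution 1.2, 4 with TMM factors, 4 with median-of-ratios factors, 8 with the endoderm-like level subtracted (5 lower, where 10 had been) and 5 in the window of 0 to 5%. The cause of these changes was not tested. The gate on sarcomere UMIs also took D21 cells of other classes. At 0 to 5% mitochondrial share, gated fibroblast-like, unnamed and CM-like cells of D21 held 53, 16 and 0 SLN UMIs. At 5 to 10% they held 15, 15 and 5. The count of members from D8 to D14 (5) ran from 4 to 6 over its alternatives. Of 232 levels of 10 CPM or more that were recomputed, 10 moved by over 1.5 times, among them D14 levels of SLN (83.7 CPM), PLN (830 CPM), ATP2A2 (144 CPM) and TRDN (141 CPM) in CM-like cells at a limit of 5%. The D14 level of SLN in fibroblast-like cells (11.1 CPM) moved to 3.02 CPM at that limit and 6.06 CPM at resolution 1.2. At resolution 1.2 its D21 level was 71.6 CPM, and at the limit of 5% no D21 cells were named fibroblast-like. CASQ2, at 1 to 3 UMIs a day, was below what this depth can compare.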
